A study of Caenorhabditis elegans with 2 samples.

Results

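Of the 1663 nuclear summits in the authors' thresholded list of SPR-1 ChIP-seq regions, 240 lay within 200 bp of a tRNA gene. They were chosen by position alone: the summit had to fall inside, or no more than 200 bp outside, a gene of biotype tRNA in the Ensembl annotation of WBcel235, the build that the authors' lists call ce11. That choice was made among summits that had all passed the authors' threshold. Beyond the threshold, the measured signal was not used for the choice. The worms were Caenorhabditis elegans of strain OP521, which carries the unc-119(tm4063) allele on chromosome III and the integrated transgene wgIs521, from which SPR-1 is made with a GFP-FLAG tag at its C-terminus. Entire L4 hermaphrodites, 50 hours past a synchronising L1 starvation, were the starting material; their chromatin was sonicated and precipitated with an antibody against GFP. The 1 group held 2 biological replicates, each a biosample of its own per the labels. Every sample carried the transgene and the unc-119 allele, and all tissues of the animal were pooled. The labels do not say which promoter drives the transgene or whether the strain's own spr-1 gene was intact.

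tRNA genes are transcribed by RNA polymerase III. Their promoter lies inside the gene: the A box and the B box, which also encode the D arm and the T arm of the tRNA, are bound by the factor TFIIIC, which brings TFIIIB to the DNA just upstream of the gene, and TFIIIB recruits the polymerase. A run of T after the gene ends transcription. SPR-1 is the worm counterpart of CoREST, a corepressor that bridges a histone demethylase and histone deacetylases and is known from genes of RNA polymerase II. tRNA genes are among the most heavily transcribed sites of a nucleus, and such sites are often enriched in ChIP of many unrelated proteins. No list from an untagged strain was used here, so how much of the signal at tRNA genes depends on SPR-1 was not tested.

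The values are the signal of each summit, a score of the authors whose scale the labels and headers do not state, so levels are ranked and compared only within a list. The pooled candidate list, made from both replicates, had 30000 summits, of which 29977 were nuclear. Replicate 1 had 26070 candidates and replicate 2 had 21966. The thresholded list had 1686 summits, of which 23 were mitochondrial and were left out. For each replicate, the 1686 candidates of highest signal were taken as its own strong set. Read depth is unknown. A summit of the thresholded list is called thresholded below. With 1 group there was no test between samples, and regions are not replicates, so shares are given with the value in each replicate (n = 2).

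The tRNA genes at several of the strongest summits are shown here to make visible what these regions share, and W10G11.t2, whose summit had a pooled signal of 136, is added as a near-copy of W09G10.t3. Positions are on ce11, sequences run 5′ to 3′ along the gene's own strand, and capitals mark the letters TNGNNNAGT, taken as the core of the A box, and GTTCNANNC, taken as the core of the B box. T23F1.t2 encodes tRNA-Pro (chrV:15465225-15465296, minus strand). F15G9.t1 and F15G9.t2 encode tRNA-Ala and follow each other on the plus strand (chrX:9743589-9743660 and chrX:9743747-9743818). R04A9.t1 encodes tRNA-Gln (chrX:410391-410462, plus strand). W09G10.t3 and W10G11.t2 encode tRNA-Thr on the minus strand (chrII:3519086-3519157 and chrII:3567610-3567681). C04A11.t1 encodes tRNA-Leu (chrX:13665555-13665673, plus strand), and C18A11.t2 encodes tRNA-Arg (chrX:8036685-8036757, minus strand).
T23F1.t2: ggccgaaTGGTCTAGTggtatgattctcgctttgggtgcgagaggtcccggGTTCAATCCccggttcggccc
F15G9.t1: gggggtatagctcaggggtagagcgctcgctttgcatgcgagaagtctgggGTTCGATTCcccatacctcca
F15G9.t2: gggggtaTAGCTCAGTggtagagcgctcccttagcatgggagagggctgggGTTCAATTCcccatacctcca
R04A9.t1: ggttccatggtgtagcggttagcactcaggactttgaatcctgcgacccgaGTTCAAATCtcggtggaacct
W09G10.t3: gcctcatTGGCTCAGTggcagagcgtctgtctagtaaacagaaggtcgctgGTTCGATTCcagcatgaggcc
W10G11.t2: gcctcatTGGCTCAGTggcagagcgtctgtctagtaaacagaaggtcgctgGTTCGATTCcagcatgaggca
C04A11.t1: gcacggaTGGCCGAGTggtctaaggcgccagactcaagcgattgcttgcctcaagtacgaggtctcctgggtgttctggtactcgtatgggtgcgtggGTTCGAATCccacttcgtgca
C18A11.t2: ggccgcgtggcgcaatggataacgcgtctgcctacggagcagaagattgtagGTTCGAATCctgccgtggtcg
F15G9.t1 and F15G9.t2 differ at 7 of their 72 bases. One of these, G16T, counted from 1 at the 5′ end of F15G9.t1, falls on the last letter of the A box core, which is met in F15G9.t2 and not in its neighbour. W09G10.t3 differs from W10G11.t2 only by C72A. Thus a tRNA gene counted below as having a sequence of its own can differ from a large family by a single base. In 72-base genes the B box core began at base 52, and in the longer C04A11.t1 at base 99.

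Regions around summits are shown for T23F1.t2, where the strongest summit lay between a pair of genes, and for C04A11.t1, where the summit lay inside the gene. Both are printed on the plus strand of ce11 with tRNA genes in capitals. The first runs from the tRNA-Lys gene T23F1.t1 on the plus strand to T23F1.t2 on the minus strand (chrV:15465086-15465296), and its summit is base 114, in the T-rich stretch between the 3′ ends of both genes. The second is 100 bp on each side of the summit of C04A11.t1 (chrX:13665487-13665687), and its summit is base 101, 32 bp into the gene.
T23F1.t2 region: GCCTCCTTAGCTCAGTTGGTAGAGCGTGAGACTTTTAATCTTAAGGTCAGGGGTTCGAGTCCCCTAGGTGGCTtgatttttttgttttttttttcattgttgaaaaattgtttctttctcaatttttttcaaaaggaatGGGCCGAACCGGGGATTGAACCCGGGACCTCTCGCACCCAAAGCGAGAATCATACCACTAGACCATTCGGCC
C04A11.t1 region: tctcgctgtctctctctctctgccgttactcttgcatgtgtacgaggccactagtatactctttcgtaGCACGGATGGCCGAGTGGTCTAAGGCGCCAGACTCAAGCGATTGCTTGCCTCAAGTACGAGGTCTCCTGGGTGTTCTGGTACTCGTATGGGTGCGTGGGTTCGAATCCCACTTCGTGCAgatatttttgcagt

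Thresholded summits were found at 259 of the 612 nuclear tRNA genes (42.3%), and a further 217 had a candidate that did not reach the threshold. Counted over the 476 tRNA genes with any pooled candidate, 54.4% had a thresholded summit. The same share over the 14272 genes of all other biotypes with a candidate within 200 bp was 11.4%. Differences in gene length were not accounted for. Counted over summits in place of genes, 240 of the 539 candidates at tRNA genes (44.5%) were thresholded, against 5.55% of all nuclear candidates and 4.83% of those not at a tRNA gene. A total of 136 tRNA genes had no candidate in the pooled list.

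Both replicates held many tRNA genes in their strong sets, and replicate 1 held more. In replicate 1, 276 of 496 tRNA genes with a candidate (55.6%) had a summit of the strong set within 200 bp, against 12.2% of genes of other biotypes. In replicate 2, the count was 201 of 446 (45.1%), against 13.0%. The mean of the replicates was 50.4% ± 7.48 (SD, n = 2). That SD holds the shift between the replicates and is not the spread of the difference from other genes, which was not tested. Of 612 tRNA genes, 170 were in both strong sets, 106 in that of replicate 1 alone and 31 in that of replicate 2 alone. Of the 259 genes with a thresholded summit, 166 were in both strong sets and 4 in neither.

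The strongest summit at tRNA genes had a signal of 345 in the pooled list and was number 60 of the nuclear summits. It lay 26 bp beyond the 3′ end of T23F1.t2 (WBGene00014532), a tRNA-Pro gene, with a signal of 199 (rank 56) in replicate 1 and 141 (rank 97) in replicate 2. The next, between F15G9.t1 (WBGene00014333) and F15G9.t2 in an intron of him-4, which encodes an extracellular matrix protein of the hemicentin family, had a signal of 329 pooled, 167 in replicate 1 and 163 in replicate 2. Both therefore stood among the 100 best nuclear summits of each replicate, and both lay in the gap between neighbouring tRNA genes. M02F4.t1 (tRNA-Gly, X) followed with 322 pooled, 183 in replicate 1 and 142 in replicate 2. R04A9.t1 (tRNA-Gln), in an intron of ZK1193.2 on the other strand, had 299 pooled, 139 in replicate 1 and 173 in replicate 2, with its summit 108 bp upstream of the gene. It ranked 134 in replicate 1 but 55 in replicate 2, where no summit at a tRNA gene ranked better.

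The other 6 of the 10 strongest were C28G1.t1 (tRNA-Glu, 274), W09G10.t3 (tRNA-Thr, 261), C04A11.t1 (tRNA-Leu, 252), C18A11.t2 (tRNA-Arg, 249), R11.t1 (tRNA-Tyr, 235) and W02H3.t1 (tRNA-Leu, 229), all pooled signals. In replicate 1 they had 145, 148, 155, 130, 137 and 106 in the same order, and in replicate 2 they had 137, 116, 95.8, 141, 99.5 and 118. Of the 10 strongest, 8 were on X, 6 had another tRNA gene within 1000 bp and 2 were in introns. The summit was inside the gene in 2 cases and within 500 bp of a protein-coding start in 3. These 3 were at T23F1.t2, C28G1.t1 and W09G10.t3. The summit at C28G1.t1 lay 95 bp upstream of the tRNA gene and 2 bp from the start of the protein-coding gene C28G1.2. Which of these genes it belongs to was not tested. The 10 belonged to 9 isotypes, tRNA-Leu being there with a pair of genes of different sequence.

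At the authors' threshold, the median signal of summits at tRNA genes was close to that of the other summits. Their pooled signal ran from 80.1 to 345 with a median of 113.7 and quartiles of 93.0 and 139, and the 1423 other nuclear summits ran from 79.7 to 1684 with a median of 114.0. The ratio of the medians was 0.997 in the thresholded list, 1.06 in replicate 1 and 0.945 in replicate 2, so the replicates fell on either side of 1. The ratio also turned with the length of the list, from 0.853 in the 843 strongest lines to 1.23 in the 3372 strongest pooled lines. What differed was the top of the ranking. Over the whole thresholded list, 240 of 1663 nuclear summits were at tRNA genes. None of them was among the 50 strongest nuclear summits, 4 were among the best 100, 12 among the best 200 and 51 among the best 500. In the strong sets of the replicates the best ranks were 56 and 55. When the ranking was cut into 10 equal steps, tRNA genes held 5.39% of summits in the strongest step, 21.6% in step 4 and 13.9% in the weakest. The share was lowest in the strongest step in all 3 rankings.

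**Figure D1:**
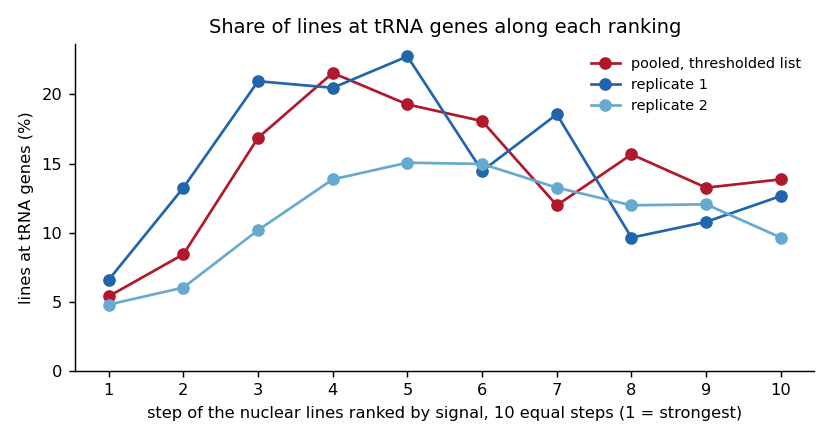
Share of nuclear summits at tRNA genes (y axis, percent) in each of 10 equal steps of the ranking by signal (x axis, 1 is the strongest) for the thresholded list and the strong set of each replicate. In each ranking the strongest step holds the smallest share, 5.39% in the thresholded list, 6.59% in replicate 1 and 4.79% in replicate 2. The thresholded list as a whole has 240 of 1663 nuclear summits at tRNA genes.

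Most summits lay on the tRNA gene itself. Of the 240, 128 (53.3%) were inside the gene, 73 upstream of its first base and 39 beyond its last, and 214 were no more than 50 bp from it. Counted along the gene from its first base, the median position was 26.5 bp and the quartiles were −13.25 and 63.25 bp, around genes with a median length of 72 bp. The 299 candidates at tRNA genes below the threshold were more spread out: 85 (28.4%) were inside the gene, and their quartiles were −27.5 and 130.5 bp. Between 201 and 1000 bp from a tRNA gene there were only 5 thresholded summits, against 11 between 101 and 200 bp, so few summits lay near the 200 bp limit on either side. The replicates differed in this measure. The strong set of replicate 1 had 131 of 250 summits inside the gene (52.4%), and that of replicate 2 had 71 of 186 (38.2%).

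**Figure D2:**
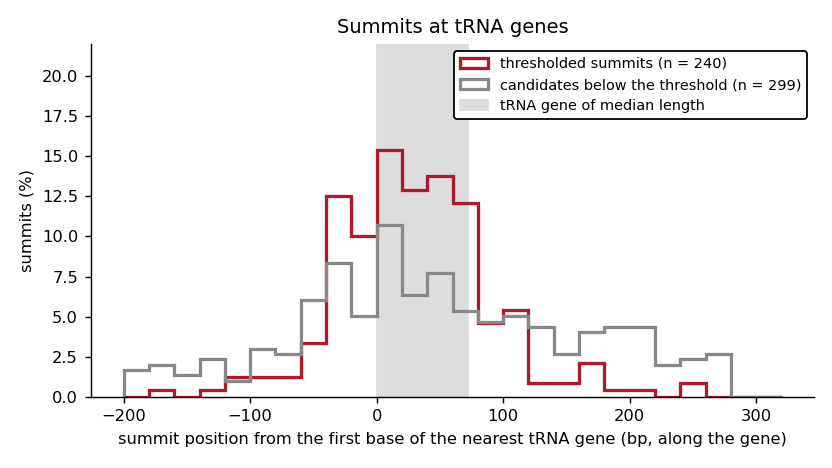
Position of each summit from the first base of its nearest tRNA gene (x axis, bp along the gene) as the share of the 240 thresholded summits and of the 299 candidates at tRNA genes below the threshold (y axis, percent, bins of 20 bp). The grey band is a gene of the median length of 72 bp, and the thresholded summits pile up on it and just upstream.

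The strongest of these summits were more often beside the gene than in it. Of the 40 strongest, 26 lay outside the gene and 14 inside, although 112 of all 240 lay outside. The median pooled signal was 116 for summits outside and 111 for those inside, with quartiles of 92.6 and 153 outside and 93.6 and 134 inside, so the ranges overlapped almost fully. Summits upstream of the gene made up 20 of the 40 strongest. In 29 cases 2 or more tRNA genes lay within 200 bp of the same summit, and in 22 of these the summit was outside the nearest gene. These 29 accounted for 4 of the 10 strongest, and their median signal was 117, against 113 for the 211 with a single gene.

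The internal promoter letters were counted in the 201 bp centred on each summit, on both strands. GTTCGANNC, the stricter form of the B box core, was found at 145 of the 240 summits (60.4%), at 3.09% of the other thresholded summits and at 2.67% of all nuclear candidates. The tRNA genes themselves held it in 441 of 612 cases (72.1%). The looser GTTCNANNC, which contains the strict form and was chosen after its values were seen, was found at 205 (85.4%), against 8.22% of other thresholded summits, 8.27% of all nuclear candidates and 95.9% of tRNA genes. The A box core TNGNNNAGT was found at 165 (68.8%), against 25.4% of other thresholded summits, 28.4% of all nuclear candidates and 62.9% of tRNA genes. The A box core and the B box cores can occur in the same window and were counted separately. These shares follow from the rule, since most windows hold a tRNA gene.

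tRNA genes without the letters had summits too. Among the 587 genes with the looser B box core, 251 (42.8%) had one, and among the 25 without it, 8 (32.0%) had one. For the A box core, the counts were 177 of 385 (46.0%) with the letters and 82 of 227 (36.1%) without. A run of at least 4 T within 25 bp after the gene, the terminator of RNA polymerase III, was present at 604 of the 612 genes. It was thus shared by nearly every tRNA gene, with and without a summit.

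Isotypes, the amino acids the tRNAs carry, were taken from RefSeq and were given for 607 of the 612 genes. All 20 standard isotypes had a thresholded summit. The selenocysteine tRNA gene K11H12.t1, a single copy, had a candidate with a signal of 56.3 that did not reach the threshold. The highest shares were for tRNA-Cys, with 9 of 13 genes (69.2%; 8 in replicate 1 and 9 in replicate 2), and tRNA-Ala, with 22 of 34 (64.7%; 23 and 21). tRNA-Glu followed with 22 of 41 genes (21 and 18), tRNA-Thr with 18 of 34 (21 and 11) and tRNA-Asp with 13 of 27 (14 and 12). From tRNA-Asp down to tRNA-Gln the shares ran from 48.1% to 40.7% over 9 isotypes, a span smaller than the gap between the replicates for several of them. All 9 were lower in replicate 2, so that gap holds a shared shift, and differences between neighbours in that order were not tested.

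At the low end, tRNA-Trp had a thresholded summit at 2 of 12 genes (16.7%; 3 and 1 in the replicates), tRNA-Tyr at 4 of 19 (4 and 6), tRNA-Phe at 3 of 14 (4 and 2) and tRNA-Asn at 5 of 20 (8 and 3). tRNA-Val had 10 of 31 (8 and 7). In each replicate the shares of tRNA-Cys and tRNA-Ala were above those of all 5 of these: the lowest value among the former was 61.5% and the highest among the latter was 40%. tRNA-His, with 7 of 20 genes (35%) in the thresholded list, was also low in the replicates (5 and 3). The means over replicates were 65.4% ± 5.44 for tRNA-Cys, 64.7% ± 4.16 for tRNA-Ala, 24.2% ± 2.28 for tRNA-Val and 16.7% ± 11.8 for tRNA-Trp (SD, n = 2). The widest spread was for tRNA-Met, at 50% in replicate 1 and 15% in replicate 2, and for tRNA-Thr, at 61.8% and 32.4%. The median over genes of the best pooled signal gave a similar order, with 119 for tRNA-Cys and 110 for tRNA-Ala at the top and 55.9 for tRNA-Phe at the bottom of the standard isotypes.

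**Figure D3:**
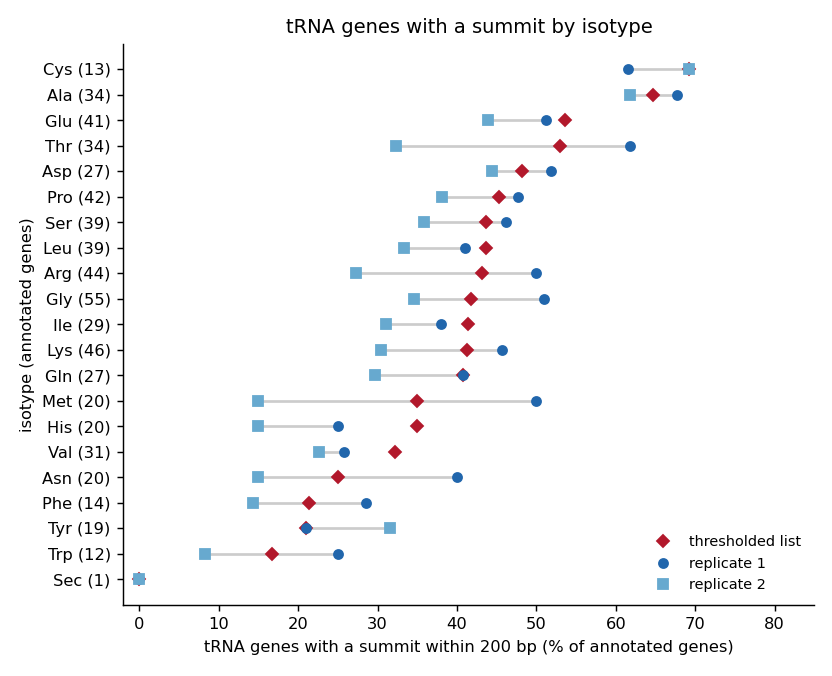
Share of annotated tRNA genes of each isotype with a summit within 200 bp (x axis, percent) in the thresholded list (diamonds) and the strong sets of replicate 1 (circles) and replicate 2 (squares), with the number of genes in brackets. Lines join the replicates; tRNA-Cys and tRNA-Ala lie above 60% in both, and tRNA-Trp between 8.33% and 25%.

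The strongest summit of each isotype ranged widely. After the isotypes of the 10 strongest came B0350.t1 (tRNA-Lys, IV, 224), F41D9.t3 (tRNA-Asn, X, 223), F38G1.t2 (tRNA-Asp, X, 205) and C42D8.t1 (tRNA-Ile, X, 188). R04D3.t2 (tRNA-Val, 172), C06G1.t1 (tRNA-His, 163), T15B12.t1 (tRNA-Met, 162), C53C7.t1 (tRNA-Ser, 161) and K01A12.t4 (tRNA-Cys, 157) were lower. T28B4.t1 (tRNA-Phe, 113) and sup-5 (tRNA-Trp, 107) were the lowest. tRNA-Cys thus had a high share of genes with a summit but no summit among the 40 strongest. tRNA-Asn and tRNA-Tyr showed the opposite: their shares were low, but F41D9.t3 (tRNA-Asn, 223), R11.t1 (tRNA-Tyr, 235) and C02B4.t2 (tRNA-Tyr, 207), the last named after its value was seen, were among the 15 strongest.

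Several tRNA-Trp genes carry the name sup. Of all 12 tRNA-Trp genes, only sup-5 and sup-7 had a thresholded summit, and sup-21, sup-24, sup-28, sup-29 and sup-33 did not. sup-5 had a pooled signal of 107, with 79.9 in replicate 1 and 28.1 in replicate 2, and sup-7 had 105, with 59.3 and 41.6. Ranked within each list, sup-5 was at 533 in replicate 1 and at 3330 in replicate 2. sup-24 missed the threshold narrowly with 79.4, rtw-5 had 75.2, Y95B8A.t1 had 60.2, Y4C6B.t2 had 59.3, sup-28 had 56.0, rtw-6 had 51.7 and sup-33 had 42.3. The other 3 tRNA-Trp genes, sup-21, sup-29 and F49C5.t1, had no pooled candidate.

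Most tRNA genes are members of families of identical sequence. Of 612 genes, 469 shared their sequence with another, and there were 200 distinct sequences. A thresholded summit was found at 39 of 143 genes with a sequence of their own (27.3%), at 78 of 182 shared by 2 to 10 genes (42.9%) and at 142 of 287 shared by over 10 (49.5%). In replicate 1 these shares were 28.0%, 46.2% and 53.0%, and in replicate 2 they were 20.3%, 33.0% and 39.0%, so the order was the same in each. Part of the gap lay in having a candidate at all: among genes with a candidate, the shares were 44.8%, 54.2% and 58.0%. The sources used here do not say how reads from identical copies were placed, and the part of that step in these shares was not tested.

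Identical copies differed in the best signal found within 200 bp. A gene was given the best summit in that reach, even one nearer to a tRNA gene of another family. T23F1.t1 and T23F1.t2, of different families, thus both had the summit of 345, and F15G9.t1 and F15G9.t2 that of 329. In each of the 20 families with 10 or more genes, some copies had a thresholded summit and some did not. Together 153 of their 317 genes had one, and how many mixed families such a share gives by itself was not tested. The share ran from 20% to 73.3% between families, from 16.7% to 90% in replicate 1 and from 10% to 80% in replicate 2. The 24 copies of the tRNA-Pro gene T23F1.t2 had 14 genes with a thresholded summit (14 in replicate 1 and 11 in replicate 2), and their best pooled signals ran from 40.2 to 345 among those with a candidate. The 15 copies of the tRNA-Gln gene R04A9.t1 had 6 (6 and 5), with signals from 27.2 to 299. The 15 copies of F15G9.t2 (tRNA-Ala) had 11, with 11 in replicate 1 and 12 in replicate 2. The 14 copies of the tRNA-Lys gene T23F1.t1 had 6, with 7 and 2 in the replicates. On X, where all their members lie, a family of 10 tRNA-Arg genes had 7 with a thresholded summit (9 and 4 in the replicates), and a family of 9 tRNA-Leu genes had 1 (3 and 1).

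tRNA genes often lie close together, and clusters were formed by joining genes no more than 1000 bp apart. This gave 100 clusters of up to 6 genes and 376 single genes. Of the 240 summits, 72 (30.0%) had a clustered tRNA gene as the nearest, with 30.0% in replicate 1 and 31.2% in replicate 2, while 236 of all 612 tRNA genes (38.6%) were clustered. Counted per gene, a thresholded summit was found at 95 of 236 clustered genes (40.3%) and at 164 of 376 single genes (43.6%). The clusters differed by size. Genes in pairs had one in 70 of 156 cases (44.9%), those in clusters of 3 in 14 of 42 (33.3%) and those in clusters of 4 or more in 11 of 38 (28.9%). In replicate 1 the last group was at 42.1% and in replicate 2 at 18.4%, so its place in the order did not hold in both.

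Of the 78 pairs, 27 had a thresholded summit at both genes, 16 at a single gene and 35 at neither. Genes within 200 bp of the same summit both count, which adds to the pairs with both. Of the largest clusters, the 6 genes at F22F1 on X (8154445 to 8156707), which encode tRNAs for Ser, Asp, Met and Ile, had a thresholded summit at 3 genes, with 4 in replicate 1 and 0 in replicate 2. The 6 tRNA-His genes at F28H6 on X (14135045 to 14137010) had none, and their best candidate had a signal of 37.8. The 5 genes at K01A12 on X (8623603 to 8624532), for Arg and Cys, had 2, and the 5 tRNA-Gln genes at H08J11 on X (9090627 to 9091628) had 1. Clusters of 4 or more genes hold only 38 of the 612 tRNA genes, so most of the summits could not lie in them.

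The intronic share of these summits was close to that of tRNA genes in the thresholded list and lower in replicate 2. The nearest tRNA gene lay whole in an intron of a protein-coding gene for 110 of the 240 summits (45.8%), with 47.2% in replicate 1 and 38.7% in replicate 2, and 287 of all 612 tRNA genes (46.9%) were intronic. Among the 843 strongest lines it was 36.5%. Counted per gene in replicate 2, 26.5% of intronic tRNA genes and 38.5% of the others were in the strong set, against 44.9% and 45.2% in replicate 1. On X the values were 36.2% of summits and 34.4% of genes, and on the autosomes 54.8% and 57.1%. The replicates were farthest apart for hosts on the same strand as the tRNA gene. Of 164 tRNA genes in an intron of a host on the same strand, 62 had a thresholded summit, 70 were in the strong set of replicate 1 and 35 in that of replicate 2. Of 122 with the host on the opposite strand, the counts were 55, 59 and 41, and of 319 intergenic genes they were 140, 145 and 122. The median pooled signal was 107 for intronic summits (quartiles 89.6 and 130) and 119 for the others (quartiles 101 and 149).

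The X chromosome held 116 of the 240 summits (48.3%), with 47.6% in replicate 1 and 48.9% in replicate 2. It also holds 276 of the 612 nuclear tRNA genes (45.1%), while 16.6% of the other thresholded summits were on X. Counted per gene, 124 of 276 tRNA genes on X (44.9%) and 135 of 336 on the autosomes (40.2%) had a thresholded summit. The replicates gave 47.1% and 36.2% on X and 43.5% and 30.1% on the autosomes. In each replicate X was the higher, by less than the gap between the replicates. X and the autosomes were both lower in replicate 2, so that gap is not the spread of their difference, which was not tested. Among the autosomes, chromosome V stood lowest, with 19 of 78 genes (24.4%; 21 in replicate 1 and 16 in replicate 2). The others ran from 27 of 66 on I (40.9%) to 28 of 57 on II (49.1%), with 28 of 64 on III and 33 of 71 on IV. Chromosome V was the lowest of the 6 chromosomes in both replicates, and it also carried T23F1.t2, the strongest of all. The strongest summits of the remaining chromosomes were F15G9.t1 on X, W09G10.t3 on II, B0350.t1 on IV, F56F3.t1 (tRNA-Arg, 189) on III and T09B4.t1 (tRNA-Ile, 183) on I.

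**Figure D4:**
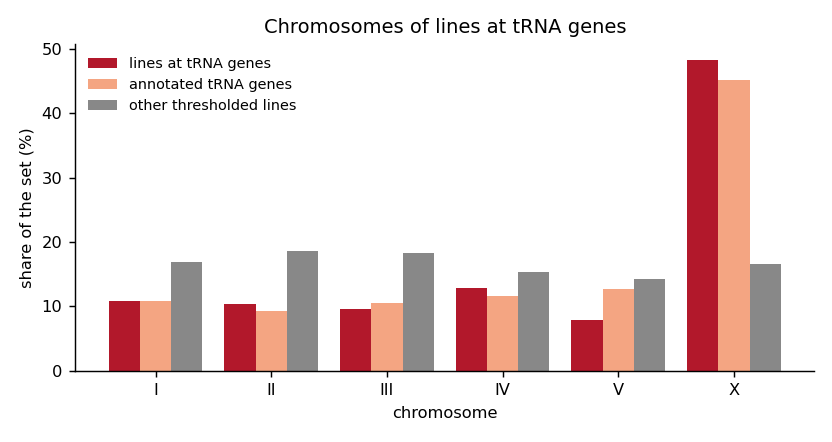
Share of each set on each chromosome (y axis, percent) for the 240 thresholded summits at tRNA genes, the 612 annotated nuclear tRNA genes and the 1423 other thresholded summits. The first pair of bars are close to each other on X (48.3% and 45.1%), and other summits are at 16.6% there.

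Summits at tRNA genes were less often near a protein-coding start than other summits were. Of the 240, 40 (16.7%) had a protein-coding start within 500 bp, against 661 of the 1423 other summits (46.5%). The 240 had 233 distinct nearest tRNA genes, so some were further summits at the same gene. Another thresholded summit of any kind lay within 1000 bp of 29 (12.1%), against 243 of the others (17.1%). In a single case, C18A11.t2, was that neighbour not itself at a tRNA gene, a count not made for the other summits. The neighbour was a summit with a signal of 679, 200 bp away on X in the same interval. The protein-coding start nearest to the summit at C18A11.t2 was that of xol-1, 4666 bp away. xol-1 is the switch gene of sex determination in the worm. With both summits in the same interval, the part of that neighbour in the pooled signal of 249 at C18A11.t2 was not tested. Summits near a protein-coding start had a median signal of 118, against 112 for the others at tRNA genes.

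The replicates ranked these summits as follows. All 240 matched a candidate of replicate 1 and 239 a candidate of replicate 2. These were 237 and 238 distinct candidates, since 6 summits shared 3 candidates of replicate 1 and 2 shared 1 of replicate 2, and the matched summits lay up to 175 and 220 bp away. Across the 239 matched in both, Spearman's rho of the signals was 0.486 and Pearson's r of their log2 values was 0.517, and across 1420 other summits these were 0.587 and 0.700. Both are descriptions across regions that share libraries, and the other summits span a wider range of signal. The median rank of the 239 was 733 in replicate 1 and 1127 in replicate 2, while the other summits had medians of 862.5 and 799.5. In all, 175 of 239 (73.2%) ranked better in replicate 1. Of the 239, 218 (91.2%) were within the best 1663 nuclear candidates of replicate 1, 166 (69.5%) within those of replicate 2 and 149 within both. Among the 1420 other summits the shares were 81.7% and 80.6%, and 929 were within both. The share ranked better in replicate 1 was not counted for the other summits.

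**Figure D5:**
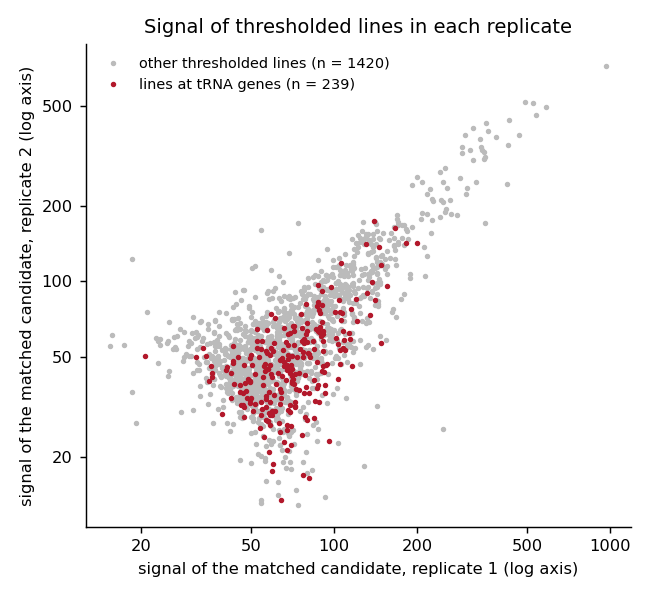
Signal of the matched candidate in replicate 1 (x axis) and replicate 2 (y axis), both on log axes, for 239 thresholded summits at tRNA genes and 1420 other thresholded summits. Summits at tRNA genes stay below 200 in both replicates, and those with the lowest signal in replicate 2 have middling signal in replicate 1.

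Of the 10 summits whose ranks differed most, 9 were better in replicate 1. ZC455.t1 (tRNA-Ser) had a signal of 96.1 pooled, 80.7 in replicate 1 (rank 521) and 16.5 in replicate 2 (rank 11233). F09B9.t2 (tRNA-Arg) had 85.8 pooled, 63.9 in replicate 1 and 13.4 in replicate 2 (rank 17083), and ZK622.t1 (tRNA-Ala) had 114, 95.8 and 23.2. F59C12.t2 (tRNA-Asp) went the other way, with 117 pooled, 20.6 in replicate 1 (rank 10457) and 50.3 in replicate 2 (rank 923). The remainder were C52E12.t2, ZC449.t1, ZK154.t3, R04D3.t5, T14B4.t1 and C03F11.t1, with pooled signals from 80.7 to 94.2. For each of these 10, the matched candidate ranked high in 1 library and low in the other, and none of the 10 was among the 40 strongest. For ZK622.t1 the match in replicate 2 lay 220 bp from the summit. C52E12.t2 had the same replicate 1 candidate as its neighbour C52E12.t3.

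At the edge of the list, the lowest summits at tRNA genes were those of F14B4.t2 (tRNA-Pro, 80.1), C52E12.t2 (tRNA-Thr, 80.7) and T02G6.t1 (tRNA-Ser, 81.0). Just below the threshold were the candidates at F18C5.t1 (tRNA-Lys, 79.6), K08H2.t1 (tRNA-Thr, 79.6) and sup-24 (tRNA-Trp, 79.4). The farthest summits still counted were 183 bp from Y7A9D.t3, 172 bp from C48C5.t1 and 163 bp from F14H8.t1. The first of these lay 33 bp from the start of the protein-coding gene Y7A9D.1. The nearest not counted were 238 bp from C18A11.t2, 293 bp from F22B7.t4 and 725 bp from C47E8.t1.

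The protein-coding genes of the same pathway showed few summits. Of 43 listed genes for RNA polymerase III, its initiation factors, its repressor and tRNA maturation, 34 were found by name in the annotation, 23 of those had a candidate within 1000 bp of the start, and 3 had a thresholded summit there (13.0%). Over all 9153 protein-coding genes with such a candidate the share was 12.7%, so the list was at the background. The 3 were rpac-19 (signal 175), which encodes a subunit shared by RNA polymerases I and III, rpc-2 (91.6), which encodes a large core subunit of RNA polymerase III, and tftc-1 (82.2), which encodes a subunit of TFIIIC. The candidates at pus-1, a pseudouridine synthase gene (76.5), and ssb-1, which encodes the La protein that binds the 3′ end of new RNA polymerase III transcripts (70.4), were below the threshold. mafr-1, which encodes the repressor of RNA polymerase III, had 42.6.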

How the data were processed

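Chromatin immunoprecipitation sequencing was measured in 1 group of 2 biological replicates. Per the labels, regions were listed on the builds ce10 and ce11; the ce10 lists were not used. The signal of each summit is a score made by the authors, while no source used here states the aligner, caller, scale or threshold. Per the deposited text listings, 1 control alignment was used, which was not analysed here. The 1686 thresholded lines were ranked by this score. Each line is 1 summit, positions are 1-based, and ends of regions lay within the chromosome lengths of WBcel235. Genes came from Ensembl release 115, and isotypes and names from RefSeq by gene ID. Tables were made with Python 3.11.15, pandas 2.3.3, numpy 2.4.6 and scipy 1.17.1, and the distance, offset and cluster steps were tested on simulated data. No test was run, since there is no group to compare.

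The summits and gene lists were chosen with earlier results of these data known. Genes are named by rule: the 10 strongest, the strongest by chromosome and isotype, those next to each limit, the largest clusters and the 10 of most unequal rank. tRNA-Trp genes, and families and sequences beyond these, were named after their values were seen. Alternatives were each replicate alone, the 843 strongest lines, a longer list of 3372, distances of 100 and 500 bp, 1 summit per interval, other cluster and motif settings, and exclusion of summits near protein-coding starts.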

Additional observations from a re-analysis of the deposited data

How the results depend on the processing

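No paired test between groups was possible because there is 1 group. Of 73 alternative values, 21 moved by at least 1 SD of the replicates or, for the number of summits at tRNA genes, by over 1.5 times, and 52 did not. With n = 2 this SD is a coarse yardstick: it was 0.937 for the percentage on X and 7.72 for that with the strict B box core. The values from one replicate alone are also those that give the SD. The split is thus no measure of how firm the results are. With the 843 strongest thresholded lines, 115 summits were at tRNA genes, 26.9% of tRNA genes with a candidate had one, 49.6% of these summits were on X, 36.5% were intronic and the median ratio to other summits was 0.853. With a list of 3372 lines, 339 summits were at tRNA genes, the share of tRNA genes was 75%, X held 45.7% and the ratio was 1.23. From one replicate alone, the values ran from 186 to 250 summits, from 45.1% to 55.6% for tRNA genes, from 30.0% to 31.2% for clustered summits, from 38.7% to 47.2% for intronic ones, from 52.7% to 63.6% for the strict B box core and from 11 to 21.5 bp for the median offset. Without summits near protein-coding starts, 52.5% were on X and 31.0% clustered. Clusters joined at 500 bp gave 18.8% clustered and at 2000 bp 36.7%. The strict B box core within 200 bp was at 68.3%. Of the settings added after the data were seen, the looser core gave 85.4%, genes with a sequence of their own 44.8%, and all tRNA genes as the base 42.3%. The median ratio thus lay below 1 in the shorter list and above 1 in the longer one. The cause of these moves was not tested. Limits on the reading are the unknown read depth, the unknown placement of reads among identical copies, and the lack of a list from an untagged strain.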

Other observations

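tRNA pseudogenes, as RefSeq names them, seldom had a candidate. Of 209, 39 had a pooled candidate within 200 bp and 6 (2.87%) a thresholded summit, which is 15.4% of those with a candidate, against 54.4% of tRNA genes and 11.4% of genes of other biotypes, with 6 in the strong set of replicate 1 and 3 in that of replicate 2. The looser B box core was found in 166 of the 209 (79.4%). The 6 were D1046.t1 (signal 176), T08B2.t1 (168), C52E12.t1 (92.6), Y69A2AR.t1 (87.4), F19H8.t1 (86.3) and Y69A2AR.t3 (82.6). None of them had an annotated tRNA gene within 1000 bp. Of the 209, 29 were on X.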
